A study of Mus musculus with 18 samples.

Results

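Growth factors and the receptor tyrosine kinases that bind them were examined in MPC3 mouse prostate cancer cells in which Rnf185, a membrane-anchored ubiquitin ligase of the endoplasmic reticulum, had been knocked down. The set consisted of 48 listed genes, 31 receptors (Eph and discoidin receptors were not included) and 17 ligands, among the 47643 genes of the deposited count table. Polyadenylated RNA was sequenced in 18 libraries, 6 from control cells whose titles carry the name plko, 6 from cells with the hairpin shRNF185.1 and 6 from cells with the hairpin shRNF185.3, and each of 3 labelled batches held 2 libraries of every group. A short hairpin RNA lowers the messenger RNA it matches. All 3 groups are the same cell line, with no other allele or agent given in the labels. Nothing in the labels states that libraries of a group came from separate cultures, so the p-values measure the spread between these libraries, which may be technical. The comparisons ask how the level of each gene with either hairpin differed from control, and whether the hairpins differed from each other. The comparisons with control share the same 6 control libraries.

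A receptor tyrosine kinase spans the cell membrane, is brought together in pairs by its ligand, and then phosphorylates itself and recruits adaptors that start the MAP kinase and PI3 kinase cascades. EGFR ligands are made as membrane-bound precursors and released by shedding proteases, whereas platelet-derived, fibroblast and vascular endothelial growth factors are secreted. In the prostate, FGF7 and IGF1 are known as stromal factors that act on the epithelium, and EGFR, MET and AXL signalling is widely studied in prostate cancer.

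Total counts ranged from 22027395 to 43379662 per library, and 3 counts corresponded to between 0.0692 and 0.136 normalised read counts (CPM, counts scaled to library size), which covers counting error only. Rnf185 was at 33.6 to 38.4 CPM in control, 5.21 to 6.80 CPM with shRNF185.1 and 5.19 to 6.72 CPM with shRNF185.3, a log2 fold change of -2.63 with each hairpin, and no library went against its label. Markers were mixed for a prostate epithelial line: Krt8 and Krt18 were high, at medians of 1178 and 354 CPM in control, while Epcam and Krt5 were under 1 CPM, Pbsn was at 0 and the mesenchymal gene Vim was at 3188 CPM. The 7 epithelial markers summed to 1695 to 2518 CPM in control, 1012 to 1808 CPM with shRNF185.1 and 1165 to 1379 CPM with shRNF185.3, with Krt8, Krt18 and Cdh1 called lower with both hairpins. The 5 fibroblast markers summed to 301 to 508, 755 to 1077 and 648 to 1073 CPM in the same order, although Dcn of this list fell by 2.11 on the log2 scale with shRNF185.1 (edgeR adjusted p 2e-05) and Lum was not tested. The 10 interferon-stimulated genes summed to 34.1 to 118, 195 to 348 and 159 to 982 CPM, with medians of 103, 290 and 190 CPM. With shRNF185.1 and shRNF185.3, 8 and 9 of these 10 were called higher, where 14.6% and 14.2% of all genes were. Endothelial markers never summed to more than 1.65 CPM, and the 7 leukocyte markers summed to 39.8 to 60.1, 44.2 to 70.9 and 51.4 to 65.0 CPM. Of these, Cd14 was not called and Cd68 was lower with shRNF185.1 (-0.68 on the log2 scale, edgeR adjusted p 0.0117), while Ptprc, Adgre1, Itgam, Tyrobp and Fcer1g had medians under 1 CPM in every group. Whether the shifts in these marker lists have a part in the results below was not tested. In such bulk libraries, fewer cells of a type and less RNA per cell cannot be told apart.

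The control level of each gene was compared per kb of exonic length, because longer transcripts give more reads. Among the receptors, Axl stood highest, at a median of 151 CPM per kb (145 to 173), ahead of Met (30.2), Pdgfrb (27.9), Ryk (26.8) and Fgfr1 (17.9), and the ranges of Met, Pdgfrb and Ryk overlapped. The order below Axl depended on the length used: per kb of the longest coding transcript it was Ryk (42.7), Fgfr1 (35.1), Met (34.1) and Pdgfrb (28.1). Among the ligands, Csf1 (57.6) and Vegfa (51.7) led with overlapping ranges, followed by Fgf7 (26.3), Gas6 (22.9) and Areg (13.5). Egfr was at 3.08 and Erbb2 at 9.75 CPM per kb. A filter on low counts kept 35 of the 48 genes, 18 of 31 receptors and 17 of 17 ligands. The 13 receptors that did not pass were Erbb3, Erbb4, Mst1r, Kit, Csf1r, Fgfr4, Kdr, Tek, Tie1, Ntrk2, Ntrk3, Ret and Ror1. None of these held more than 12 counts in any library except Ret. Ret held 1 to 5 counts per library in control, 1 to 6 with shRNF185.1 and 5 to 27 with shRNF185.3 (medians 5, 4 and 22), a difference that was not tested. The plot of level per length shows how far the expressed receptors and ligands were apart.

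**Figure D1:**
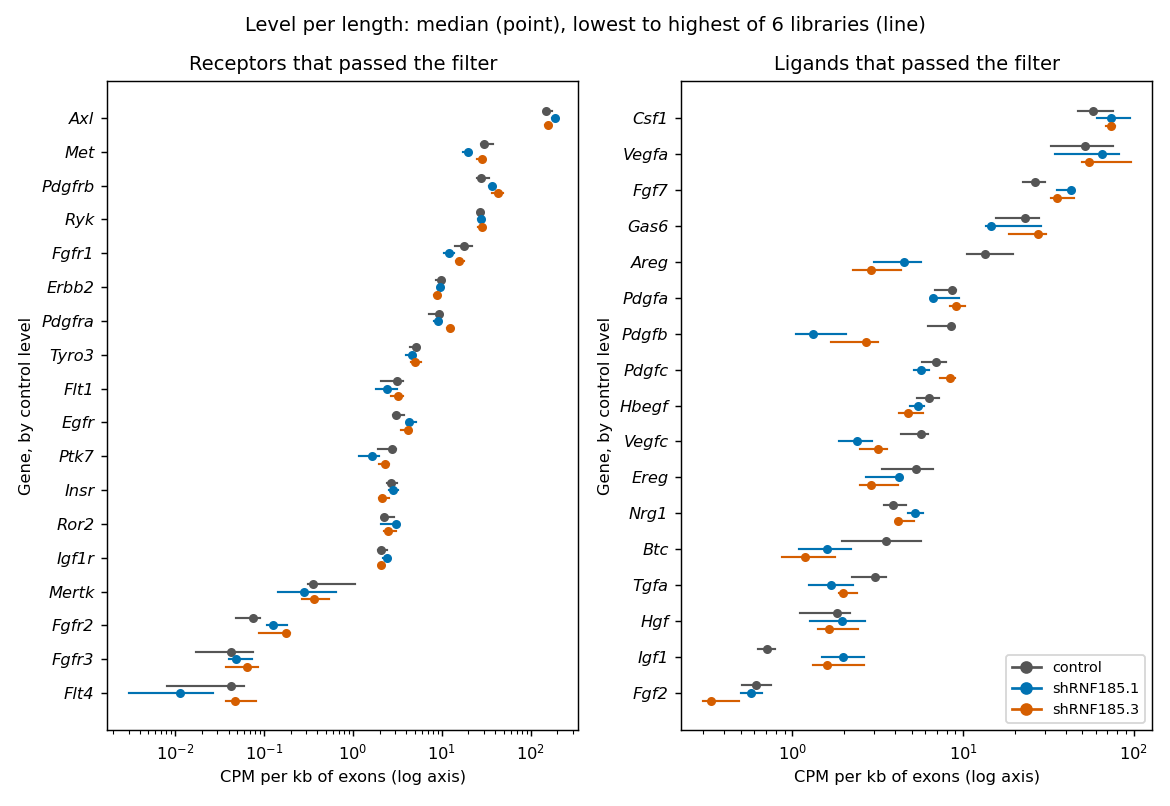
Level of the 18 receptors and 17 ligands that passed the filter, in deposited CPM per kb of exons on a log axis, with a point at the median and a line from the lowest to the highest of 6 libraries per group; a lowest value of 0 is drawn at the left edge. Axl is the highest receptor in all 3 groups, at 151 CPM per kb in control, and Areg and Pdgfb lie below their control range in both hairpin groups.

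With shRNF185.1, 20 of the 35 tested genes were called at an adjusted p under 0.05 by edgeR's quasi-likelihood test with Benjamini-Hochberg adjustment over 14309 genes, 9 higher and 11 lower, where 28.9% of all genes were called (14.6% higher and 14.3% lower). With shRNF185.3, 17 were called, 7 higher and 10 lower, where 27.3% of all genes were called (14.2% higher and 13.1% lower). The median log2 fold change of the tested genes was -0.12 and 0.05, beside -0.02 and -0.02 over all genes. Groups did not overlap for 12 genes with shRNF185.1 and 9 with shRNF185.3, where this held for 12.8% and 13.3% of all genes. Egfr, Pdgfrb, Fgfr2, Fgf7 and Igf1 rose with both hairpins (8.99% of all genes did), and Areg, Hbegf, Tgfa, Btc, Pdgfb and Vegfc fell with both (7.13% of all genes did). Pdgfc, which encodes a ligand of the alpha platelet-derived growth factor receptor, fell with shRNF185.1 and rose with shRNF185.3. Of the 18 receptors tested, 5 rose and 4 fell with shRNF185.1, while 4 rose and 2 fell with shRNF185.3. Of the 17 ligands, 4 rose and 7 fell with shRNF185.1, while 3 rose and 8 fell with shRNF185.3.

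**Figure D2:**
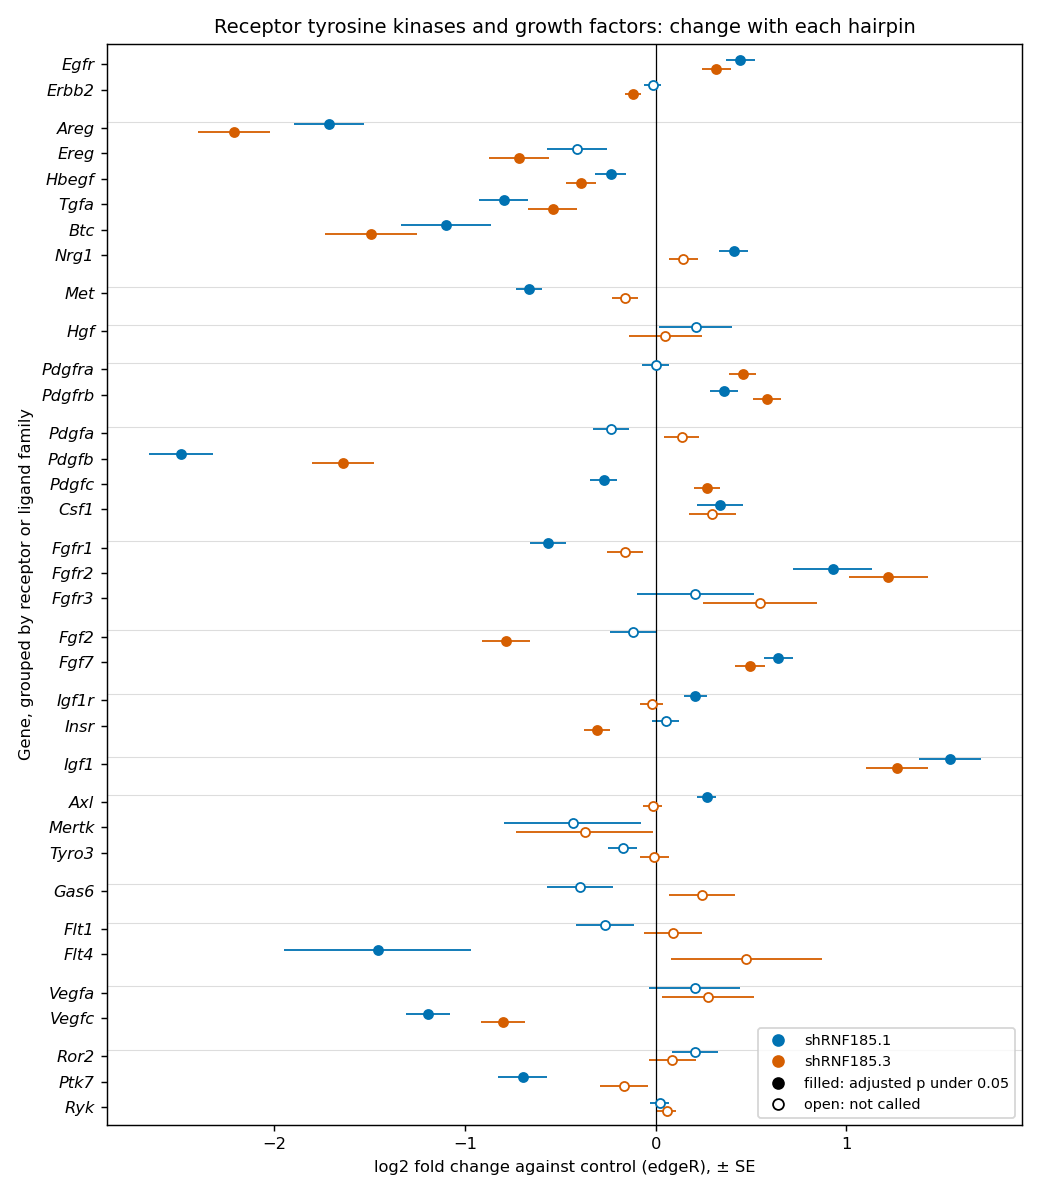
Log2 fold change against control from edgeR, with its SE, for the 35 genes that passed the filter, ordered by receptor and ligand family, with filled points for genes called at an adjusted p under 0.05. Areg and Pdgfb lie farthest to the left with both hairpins and Igf1 farthest to the right with shRNF185.1.

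Of the 5 EGFR ligands, 4 were called lower with shRNF185.1 and 5 with shRNF185.3, where 14.3% and 13.1% of all genes were called lower. The exception was Ereg with shRNF185.1. The 3 genes Ereg, Areg and Btc lie close together on chromosome 5 of GRCm38 (GENCODE M21), Ereg at 91074622 to 91093646 and Areg at 91139599 to 91148432 on the plus strand, and Btc at 91357261 to 91402994 on the minus strand. The promoter windows of Areg and Btc, which fell most within this family, and of Igf1, which had the highest fold changes of the 35 genes tested, are shown to let the opposite responses be set beside their start regions. They run from 250 bases before to 50 bases after the start site in RefSeq on GRCm38.p6, at chr5:91139349-91139648 (plus strand), chr5:91402945-91403244 (minus strand) and chr10:87860861-87861160 (plus strand), and capitals mark motif matches.
Areg: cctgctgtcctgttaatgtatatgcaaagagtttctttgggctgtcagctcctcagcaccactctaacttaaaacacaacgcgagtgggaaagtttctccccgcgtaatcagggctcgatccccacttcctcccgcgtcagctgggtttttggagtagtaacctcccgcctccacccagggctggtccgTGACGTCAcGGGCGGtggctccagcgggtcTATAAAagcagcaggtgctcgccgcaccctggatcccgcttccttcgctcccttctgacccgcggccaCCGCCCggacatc
Btc: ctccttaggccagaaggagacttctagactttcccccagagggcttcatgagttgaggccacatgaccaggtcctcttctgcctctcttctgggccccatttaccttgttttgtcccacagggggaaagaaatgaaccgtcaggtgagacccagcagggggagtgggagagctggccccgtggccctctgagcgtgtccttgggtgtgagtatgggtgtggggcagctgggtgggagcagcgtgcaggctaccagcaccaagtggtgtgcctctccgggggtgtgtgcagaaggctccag
Igf1: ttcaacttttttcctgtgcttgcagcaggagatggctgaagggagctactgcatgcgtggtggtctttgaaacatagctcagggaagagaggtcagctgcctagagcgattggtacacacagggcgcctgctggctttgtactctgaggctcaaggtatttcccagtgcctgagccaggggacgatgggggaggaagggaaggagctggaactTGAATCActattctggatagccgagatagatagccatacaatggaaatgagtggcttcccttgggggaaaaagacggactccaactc
Both strands were searched for TGACGTCA (the CRE), GGAATG (the TEAD motif), GGGCGG (the GC box) and TATAAA (the TATA box). TGANTCA was also searched, which is the AP-1 motif with any base at its centre, where the consensus has C or G. The motifs share no bases in these windows. The Areg window held TGACGTCA 61 bases before the start site (1.79% of the 32851 RefSeq promoter windows hold it) and TATAAA 31 bases before it (13.6%). It also held GGGCGG (35.7%) on the plus strand, 52 bases before the start site. The reverse complement of GGGCGG lay after the start site, at bases 288 to 293 of the window. The Igf1 window held TGANTCA as TGAATCA, outside the AP-1 consensus, 37 bases before its start site (7.81% of windows hold TGANTCA). That start site lies 2846 bases inside the GENCODE gene. GGAATG, which 14.7% of windows hold, was in none of the 3, and none of the motifs was in the Btc window. These are letter matches and no binding was measured. Pdgfb, which fell more than Btc with both hairpins (log2 fold changes -2.49 and -1.64), had no RefSeq window and could not be shown.

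Areg, which encodes amphiregulin, was at 12.8 CPM in the lowest, 16.4 in the median and 23.7 in the highest control library. With shRNF185.1 it was at 3.65, 5.51 and 6.85 CPM, and with shRNF185.3 at 2.77, 3.52 and 5.29 CPM. Every hairpin library lay below every control library. The level fell to 30.5% of control with shRNF185.1 (log2 fold change -1.71, SE 0.18, edgeR adjusted p 1.3e-06) and to 21.6% with shRNF185.3 (-2.21, SE 0.19, adjusted p 1.01e-07). Taken batch by batch (1, 2 and 3), Areg lay -1.55, -1.99 and -1.59 log2 units from control for shRNF185.1, and -1.77, -2.40 and -2.43 for shRNF185.3. Between the hairpins the difference was -0.50 on the log2 scale, which missed the threshold (SE 0.19, adjusted p 0.0952) but was called with libraries summed within batches (-0.51, adjusted p 0.0359) and with the replicate number as a block (-0.49, adjusted p 0.0183).

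Btc encodes betacellulin, which binds EGFR and ERBB4. It was at 8.82, 15.9 and 25.7 CPM in control (lowest, median and highest), 4.96, 7.24 and 9.96 CPM with shRNF185.1 and 3.92, 5.34 and 8.05 CPM with shRNF185.3. The shRNF185.3 libraries all lay below control, and the shRNF185.1 range overlapped the lowest control library. The log2 fold change was -1.10 with shRNF185.1 (SE 0.24, edgeR adjusted p 0.00164) and -1.49 with shRNF185.3 (SE 0.24, adjusted p 0.000134). The differences were largest in batch 2, at -1.74 and -2.31 on the log2 scale, and without that batch the log2 fold changes were -0.73 and -1.04, both still called.

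Tgfa, which encodes transforming growth factor alpha, was at 14.5, 19.8 and 23.0 CPM in control, 8.14, 10.9 and 14.7 CPM with shRNF185.1 and 12.2, 12.8 and 15.6 CPM with shRNF185.3. Both hairpin groups overlapped only the lower end of control. Tgfa fell by 0.80 on the log2 scale with shRNF185.1 (SE 0.13, edgeR adjusted p 0.000123) and by 0.54 with shRNF185.3 (SE 0.13, adjusted p 0.00371), the latter not called without batch 2 (log2 fold change -0.38). Ereg encodes epiregulin. It was at 13.8, 21.9 and 27.6 CPM in control, 11.1, 17.5 and 17.7 CPM with shRNF185.1 and 10.3, 11.9 and 17.1 CPM with shRNF185.3, and the groups overlapped. Ereg fell by 0.72 on the log2 scale with shRNF185.3 (SE 0.16, edgeR adjusted p 0.00227), a call lost without batch 3 (log2 fold change -0.52). With shRNF185.1 its log2 fold change was -0.41 (adjusted p 0.0551), and it was called without batch 2 (-0.57), with DESeq2 (-0.41) and with the replicate block (-0.41). Hbegf, the heparin-binding member, showed the smallest changes called in this family, -0.24 and -0.39 on the log2 scale, and the former was lost under 6 of 11 alternative analyses and the latter without batch 3 (-0.31).

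Set beside each other per kb of exons, the 5 EGFR ligands summed to a median of 31.1 CPM per kb in control (26.8 to 41.0), 17.2 with shRNF185.1 (13.6 to 19.9) and 13.3 with shRNF185.3 (12.7 to 17.6), with no overlap between control and either hairpin. Areg made up 43.9% of that sum in control, 26.3% with shRNF185.1 and 21.7% with shRNF185.3, or 33.2%, 18.5% and 14.9% per kb of the longest coding transcript. In control, Areg had the highest median of the EGFR ligands per length, but only narrowly per kb of the longest coding transcript (13.5 against 12.8 for Hbegf). With the hairpins Hbegf had the higher median per kb of exons, 5.44 against 4.54 CPM with shRNF185.1 and 4.75 against 2.90 CPM with shRNF185.3. The remaining EGFR ligands counted from the pathway list were Epgn, which encodes epigen and fell by 0.49 and 0.77 on the log2 scale (edgeR adjusted p 0.0237 and 0.00124), and Egf, which was not called with either hairpin (log2 fold changes -0.24 and -0.13).

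Egfr, the receptor of these ligands, rose. It was at 32.3, 34.9 and 43 CPM in control, 47.3, 48.6 and 57.9 CPM with shRNF185.1 and 39.8, 46.9 and 48.7 CPM with shRNF185.3. All shRNF185.1 libraries lay above control, and shRNF185.3 overlapped it. The log2 fold changes were 0.44 (SE 0.08, edgeR adjusted p 0.000225) and 0.32 (SE 0.08, adjusted p 0.0042), and the latter was not called without batch 3 (0.26). Erbb2, the coreceptor that binds no ligand of its own, was called lower with shRNF185.3 by only 0.12 on the log2 scale (adjusted p 0.0499), a call lost under 8 of 11 alternative analyses. Nrg1, which encodes neuregulin 1, the ligand of ERBB3 and ERBB4, rose by 0.41 with shRNF185.1 (edgeR adjusted p 0.000453) and was not called with shRNF185.3 (0.14), while its receptors Erbb3 and Erbb4 held at most 12 and 1 counts in any library.

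**Figure D3:**
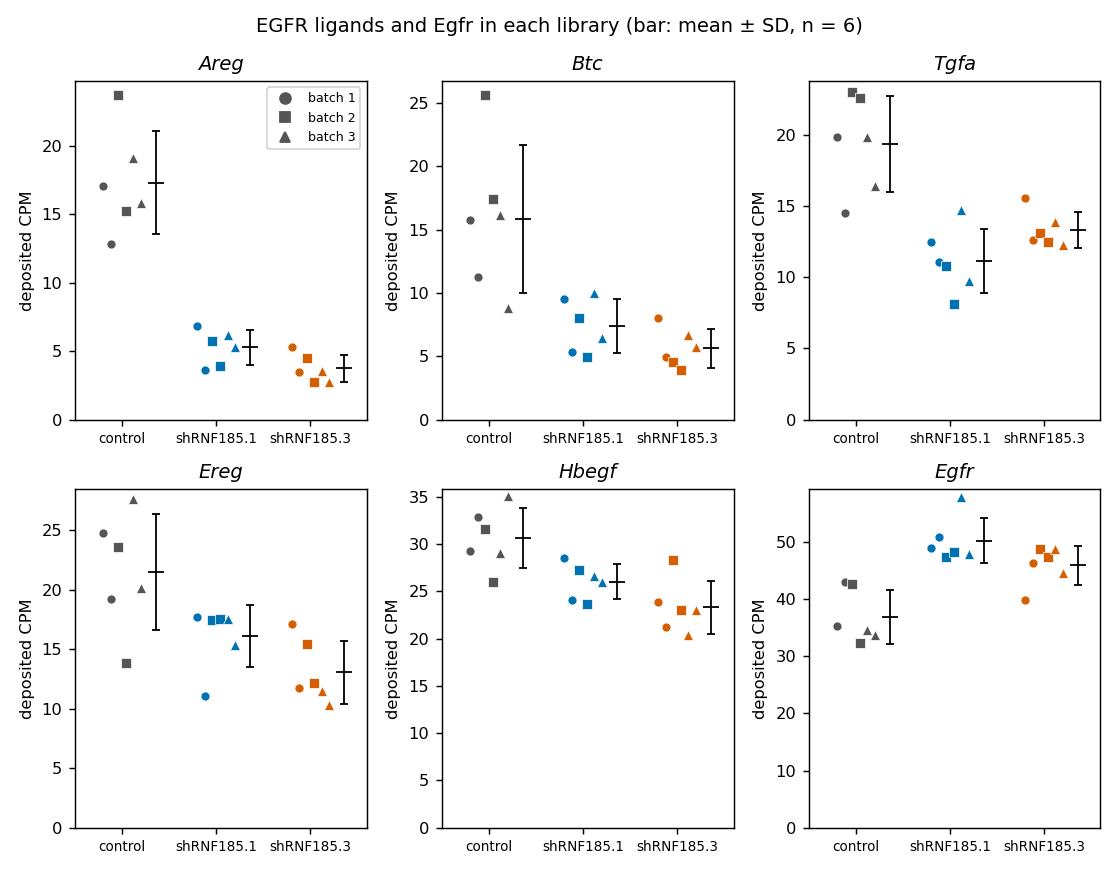
Deposited CPM of the 5 EGFR ligands and of Egfr in each of 18 libraries, with a marker shape per batch and a bar for the mean ± SD of 6 libraries. Areg is at 12.8 to 23.7 CPM in control and at most 6.85 CPM in any hairpin library, and Egfr is higher in all shRNF185.1 libraries than in control.

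In the platelet-derived growth factor family, the ligand gene Pdgfb fell and the receptor gene Pdgfrb rose with both hairpins. Pdgfb (chromosome 15, 79995874 to 80014977, minus strand) encodes the B chain, which binds both PDGF receptors. It was at 25.8, 35.2 and 36.2 CPM in control, 4.37, 5.51 and 8.55 CPM with shRNF185.1 and 7.0, 11.3 and 13.3 CPM with shRNF185.3. The hairpin groups stayed clear of the control range, with at most 13.3 CPM. The level fell to 17.8% of control with shRNF185.1 (log2 fold change -2.49, SE 0.17, edgeR adjusted p 5.36e-09) and to 32.1% with shRNF185.3 (-1.64, SE 0.16, adjusted p 4.81e-07). In batches 1, 2 and 3 Pdgfb lay -2.71, -2.19 and -2.61 log2 units from control for shRNF185.1, and -1.78, -1.64 and -1.53 for shRNF185.3. Its difference between the hairpins was 0.85 on the log2 scale (adjusted p 0.00162), with a call that was lost without batch 1 (0.81) or without batch 3 (0.74).

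Pdgfrb, the beta receptor, was at 138, 153 and 186 CPM in control, 187, 203 and 213 CPM with shRNF185.1 and 201, 239 and 271 CPM with shRNF185.3, and both hairpin groups lay wholly above control. It rose by 0.36 on the log2 scale with shRNF185.1 (SE 0.07, edgeR adjusted p 0.00115) and by 0.58 with shRNF185.3 (SE 0.07, adjusted p 9.29e-06). Pdgfra encodes the alpha receptor and has 6.21% of its exonic length opposite Gm42802 and Gm42803. It was at 72.6, 92.9 and 100.7 CPM in control, 82.0, 90.5 and 94.8 CPM with shRNF185.1 and 114, 123 and 131 CPM with shRNF185.3. Only the shRNF185.3 libraries stood apart, above both other groups: Pdgfra rose by 0.46 on the log2 scale with shRNF185.3 (SE 0.07, edgeR adjusted p 9.31e-05) and by the same amount over shRNF185.1 (adjusted p 0.000193), and its log2 fold change with shRNF185.1 was 0.00.

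Pdgfc was at 29.3, 35.5 and 40.2 CPM in control, 26.4, 29.0 and 32.0 CPM with shRNF185.1 and 37.3, 42.8 and 45.7 CPM with shRNF185.3. Each hairpin group overlapped control, and the hairpin groups did not overlap each other. The log2 fold change was -0.27 with shRNF185.1 (SE 0.07, edgeR adjusted p 0.00622), 0.27 with shRNF185.3 (SE 0.07, adjusted p 0.00687) and 0.54 between the hairpins (SE 0.07, adjusted p 2.67e-05). The change against control was not called without batch 3 for shRNF185.1 (-0.19), nor without batch 1 (0.22) or batch 2 (0.24) for shRNF185.3, and the difference between the hairpins held under all 11 alternatives. Pdgfa, which encodes the A chain and has 26.1% of its exonic length opposite 6330403L08Rik, was not called against control (-0.24 and 0.14), except with shRNF185.1 without batch 3 (-0.36) and with the GC and length offset (-0.27). Csf1 encodes the ligand of CSF1R, a receptor whose gene held at most 5 counts in any library. Csf1 was called higher with shRNF185.1 (0.34, adjusted p 0.0436), but its differences within batches were 0.13, 0.94 and -0.04, and without batch 2 the log2 fold change was 0.04. With shRNF185.3 Csf1 was not called (0.30, edgeR adjusted p 0.0766), except with library size alone (0.32). Its log2 difference between the hairpins was -0.04 and was not called. From the pathway list, Pdgfd, which encodes another ligand of the beta receptor, rose by 0.79 and 0.70 on the log2 scale (edgeR adjusted p 0.000205 and 0.000665).

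Among the insulin-like and fibroblast growth factors, Igf1 and Fgf7 rose with both hairpins. Igf1 (chromosome 10, 87858265 to 87937042, plus strand), which encodes insulin-like growth factor 1, was at 6.21, 6.99 and 7.81 CPM in control, 14.7, 19.5 and 26.1 CPM with shRNF185.1 and 13.2, 15.8 and 26.1 CPM with shRNF185.3. All hairpin libraries lay above all control libraries. The rise was 2.91-fold with shRNF185.1 (log2 fold change 1.54, SE 0.16, edgeR adjusted p 1.09e-06) and 2.41-fold with shRNF185.3 (1.27, SE 0.16, adjusted p 1.12e-05). In batches 1, 2 and 3 Igf1 lay 1.80, 1.17 and 1.54 log2 units above control for shRNF185.1, and 1.13, 1.52 and 1.02 for shRNF185.3. Its receptor gene Igf1r rose by 0.21 on the log2 scale with shRNF185.1 (adjusted p 0.0143, lost without batch 1, without batch 3 and with a GC and length offset) and was at -0.02 with shRNF185.3. Insr, the insulin receptor gene, fell by 0.31 with shRNF185.3 (adjusted p 0.00284, lost without batch 1 or batch 2) and was at 0.05 with shRNF185.1.

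IGF binding proteins hold IGF1 in the extracellular space, and the protease PAPPA cleaves some of them. Of 6 genes tested in that list, 2 rose and 2 fell with shRNF185.1, while 2 rose and 1 fell with shRNF185.3, beside 28.9% and 27.3% of all genes called. Igfbp3 fell by 0.68 and 0.74 on the log2 scale (edgeR adjusted p 0.00172 and 0.000979), and Igfbp7 rose by 0.74 and 1.57 (adjusted p 0.00872 and 1.05e-05). Pappa moved in opposite directions, by -1.21 with shRNF185.1 and 0.91 with shRNF185.3 (adjusted p 0.00124 and 0.00323), at counts of 4 to 35 per library.

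Fgf7, which encodes keratinocyte growth factor, was at 72.4, 85.4 and 97.5 CPM in control, 116, 139 and 142 CPM with shRNF185.1 and 106, 116 and 145 CPM with shRNF185.3. Both hairpin groups lay above control. It rose by 0.64 on the log2 scale with shRNF185.1 (SE 0.08, edgeR adjusted p 5.71e-06) and by 0.49 with shRNF185.3 (SE 0.08, adjusted p 0.000108). Fgfr2, the gene of its receptor, was expressed far lower, and 3.04% of its exonic length is shared on the same strand with Ctbp2, whose reads could be counted there. It was at 0.496, 0.784 and 0.941 CPM in control (12 to 30 counts), 1.12, 1.32 and 1.90 CPM with shRNF185.1 and 0.914, 1.84 and 2.04 CPM with shRNF185.3. The shRNF185.1 group lay above control and the lowest shRNF185.3 library overlapped it. The log2 fold changes of Fgfr2 were 0.93 (SE 0.21, edgeR adjusted p 0.00234) and 1.22 (SE 0.21, adjusted p 0.000205).

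Fgfr1 was the most abundant FGF receptor gene per length. It was at 139, 177 and 214 CPM in control, 105, 118 and 134 CPM with shRNF185.1 and 142, 153 and 176 CPM with shRNF185.3. All shRNF185.1 libraries lay below both other groups. Fgfr1 fell by 0.57 on the log2 scale with shRNF185.1 (SE 0.10, edgeR adjusted p 0.00021), with within-batch differences of -0.64, -0.87 and -0.14, and was not called with shRNF185.3 (-0.16, adjusted p 0.232). The latter was called lower without batch 3 (-0.37, adjusted p 0.00418) and with the GC and length offset (-0.23, adjusted p 0.017). Between the hairpins Fgfr1 differed by 0.40 (adjusted p 0.00717), which was not called without batch 1 (0.42) or with libraries summed within batches (0.40). Fgf2 encodes basic fibroblast growth factor, and 9.44% of its exonic length lies opposite Nudt6, so that reads from the 2 genes could be told apart only by strand. Fgf2 was at 3.46, 4.13 and 5.08 CPM in control, 3.37, 3.86 and 4.53 CPM with shRNF185.1 and 2.02, 2.26 and 3.32 CPM with shRNF185.3. Here the shRNF185.3 libraries stood apart, below both other groups: Fgf2 fell by 0.79 on the log2 scale against control (SE 0.13, edgeR adjusted p 0.000122) and was not called with shRNF185.1 (-0.12). Fgfr3 held 3 to 20 counts per library and was not called. From the pathway list, Fgf10, which encodes another ligand of the FGFR2 protein, rose by 1.38 with shRNF185.1 (adjusted p 0.000152), was between 0.54 and 0.84 CPM in control, and was not called with shRNF185.3 (0.54, adjusted p 0.101).

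**Figure D4:**
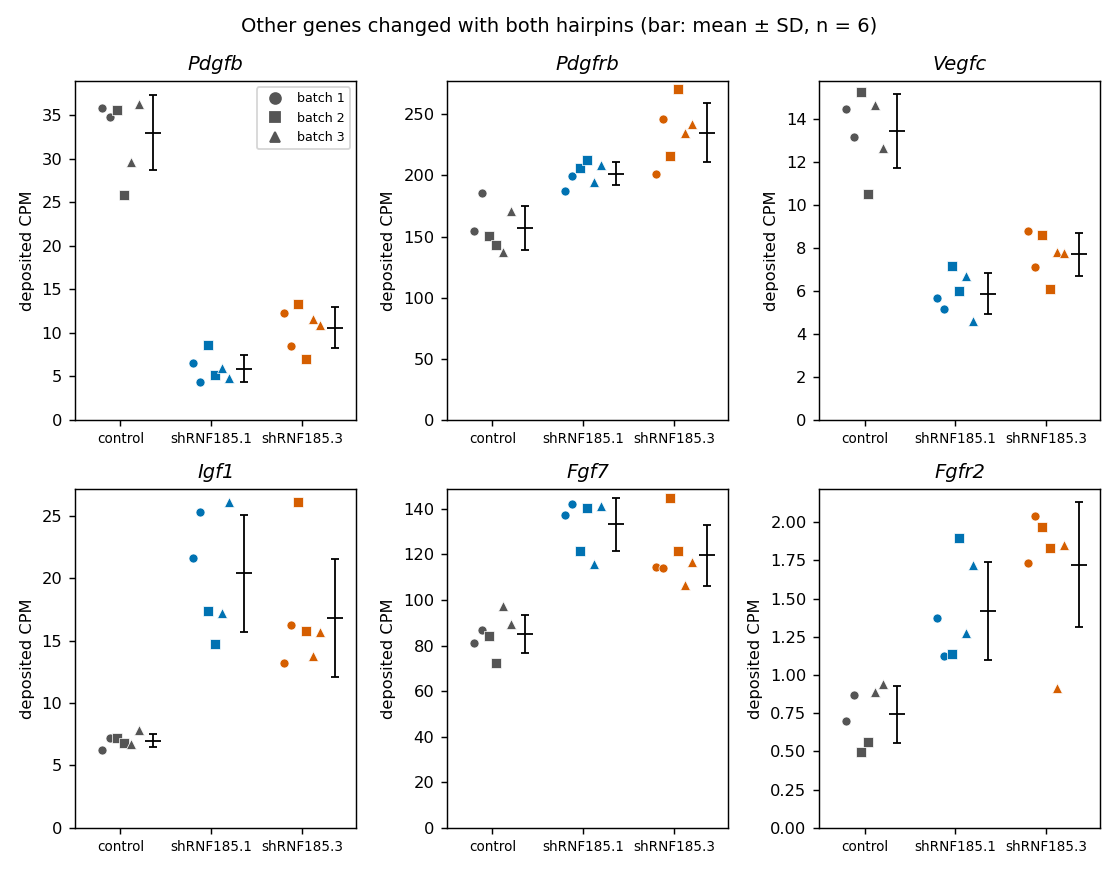
Deposited CPM in each library for 6 genes outside the EGFR ligand family that were called with both hairpins, with a marker shape per batch and a bar for the mean ± SD of 6 libraries. Pdgfb and Vegfc lie below control in every hairpin library, Pdgfrb, Igf1 and Fgf7 lie above it in every one, and Fgfr2 stays at or under 2.04 CPM throughout.

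Vegfc (chromosome 8, 54077606 to 54187096, plus strand), which encodes the lymphatic growth factor VEGF-C, fell with both hairpins. It was at 10.5, 13.8 and 15.2 CPM in control, 4.58, 5.82 and 7.17 CPM with shRNF185.1 and 6.10, 7.78 and 8.81 CPM with shRNF185.3, and no hairpin library reached the control range. Vegfc changed by a log2 fold change of -1.19 with shRNF185.1 (SE 0.12, edgeR adjusted p 4.39e-07) and -0.80 with shRNF185.3 (SE 0.12, adjusted p 3.75e-05). In batches 1, 2 and 3 Vegfc lay -1.34, -0.95 and -1.29 log2 units from control for shRNF185.1, and -0.79, -0.80 and -0.80 for shRNF185.3. Vegfd, from the pathway list, encodes the closest relative of VEGF-C and rose by 0.92 and 0.87 on the log2 scale (edgeR adjusted p 1.94e-07 and 4.96e-07). Vegfa was not called (0.20 and 0.28), and its libraries were widely spread, from 140 to 324 CPM in control, with batch differences from -0.94 to 0.98 with shRNF185.1. Without batch 2 it was called higher with both hairpins (0.75 and 0.68).

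Of the VEGF receptor genes, Flt1 was at 28.1 to 49 CPM in control and was not called (-0.27 and 0.09), except with the replicate block for shRNF185.1 (-0.26), and Kdr was not tested. Flt4 encodes the receptor of VEGF-C and held only 0 to 18 counts per library. Its level was 0.0664, 0.348 and 0.496 CPM in control, 0, 0.0926 and 0.218 CPM with shRNF185.1 and 0.308, 0.393 and 0.665 CPM with shRNF185.3, so that the hairpin groups did not overlap each other and both overlapped control. Flt4 was called lower with shRNF185.1 (log2 fold change -1.46, SE 0.49, edgeR adjusted p 0.0318), and the call was lost under 5 of 11 alternatives, among them without batch 2 (-0.76). The coreceptor gene Nrp2 was not called with shRNF185.1 (-0.05) and rose by 0.18 on the log2 scale with shRNF185.3 (adjusted p 0.0328).

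Direct comparison of the hairpins called 16 of the 35 genes, 11 higher and 5 lower with shRNF185.3 than with shRNF185.1, where 14.7% of all genes were called (7.72% higher and 6.94% lower). Groups did not overlap for 7 of them (Met, Pdgfra, Pdgfc, Fgfr1, Fgf2, Axl and Flt4), where this held for 8.25% of all genes. Rnf185 itself was as low with one hairpin as with the other. Met, Pdgfra, Pdgfc and Axl stayed called under all 11 alternatives and the other 12 were lost under at least 1. Without batch 1 the count was 5 of 35, whereas the counts against control were then 17 and 14. The plot of hairpin differences shows 6 of these genes.

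Met, the receptor of hepatocyte growth factor, was at 213, 232 and 289 CPM in control, 132, 154 and 158 CPM with shRNF185.1 and 193, 216 and 226 CPM with shRNF185.3. All shRNF185.1 libraries lay below all others. Met fell by 0.67 on the log2 scale with shRNF185.1 (SE 0.07, edgeR adjusted p 9.19e-07), was not called with shRNF185.3 (-0.16, adjusted p 0.0918) and differed between the hairpins by 0.51 (SE 0.07, adjusted p 5.02e-05), with 0.52, 0.51 and 0.49 in batches 1, 2 and 3. With the GC and length offset Met was called with shRNF185.3 as well (-0.15). Its ligand gene Hgf was not called (0.21 and 0.05), except with shRNF185.1 without batch 2 (0.59). Plxnb1, which encodes a plexin that associates with MET, fell by 1.16 with shRNF185.1 and by 0.31 with shRNF185.3 on the log2 scale (adjusted p 7.63e-08 and 0.0231). Spint2, which encodes an inhibitor of the proteases that activate hepatocyte growth factor, fell by 1.09 and 1.65 on the log2 scale (edgeR adjusted p 0.000103 and 1.58e-06).

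Ptk7 encodes a pseudokinase receptor of Wnt signalling. It was at 10.4, 14.9 and 16.5 CPM in control, 6.36, 8.78 and 10.7 CPM with shRNF185.1 and 10.7, 12.5 and 13.9 CPM with shRNF185.3, and the shRNF185.1 range just reached the lowest libraries of both other groups. Ptk7 fell by 0.70 on the log2 scale with shRNF185.1 (SE 0.13, edgeR adjusted p 0.000412) and was not called with shRNF185.3 (-0.17). The difference between the hairpins was 0.53 (adjusted p 0.00822), a call lost without batch 1 (0.57) or without batch 3 (0.49). The Wnt-linked receptor genes Ror2 and Ryk were not called in any comparison, with log2 fold changes of 0.21 and 0.09 for Ror2 and 0.02 and 0.06 for Ryk against control.

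Axl, the most abundant receptor gene here, was at 730, 758 and 869 CPM in control, 883, 954 and 998 CPM with shRNF185.1 and 733, 782 and 791 CPM with shRNF185.3. The shRNF185.1 libraries lay above both other groups, and Axl rose by 0.27 on the log2 scale (SE 0.05, edgeR adjusted p 0.000469) against -0.01 with shRNF185.3. The sister receptor genes Mertk and Tyro3 were not called, except Tyro3 with shRNF185.1 without batch 2 (-0.29) and with the GC and length offset (-0.23). Gas6 encodes the ligand of all 3 receptors. It was at 39.9, 58.5 and 70.5 CPM in control, 34.8, 37.4 and 72.6 CPM with shRNF185.1 and 47.3, 70.0 and 78.2 CPM with shRNF185.3, with overlap between all groups. Gas6 was not called against control (-0.40, adjusted p 0.0921, and 0.24, adjusted p 0.316), but with shRNF185.1 it was called lower without batch 3 (-0.73, adjusted p 8.5e-05) and with the replicate block (-0.42, adjusted p 0.0424). It differed between the hairpins by 0.64 (SE 0.17, edgeR adjusted p 0.0159), a difference that was 0.92, 0.90 and 0.20 in batches 1, 2 and 3 and was not called without batch 1 (0.52) or batch 2 (0.51). Pros1, which encodes protein S, the other TAM ligand, rose by 0.81 and 0.43 on the log2 scale (adjusted p 3.29e-06 and 0.00189).

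**Figure D5:**
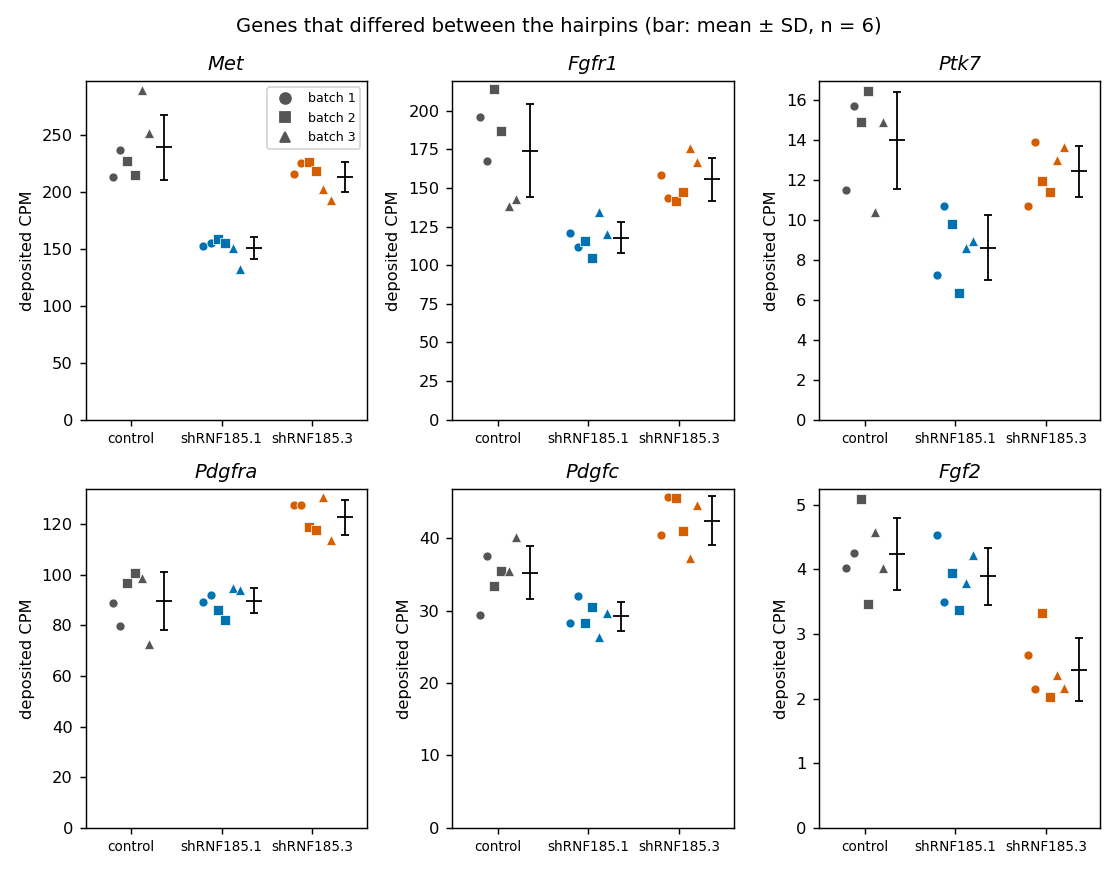
Deposited CPM in each library for 6 genes called between the hairpins, with a marker shape per batch and a bar for the mean ± SD of 6 libraries. Met, Fgfr1 and Ptk7 are lower with shRNF185.1, Pdgfra is higher and Fgf2 lower with shRNF185.3, and Pdgfc differs from control in opposite directions.

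The rest of the pathway was counted from a list of 111 further receptor, ligand, coreceptor, binding protein, adaptor and inhibitor genes, of which 87 were tested. With shRNF185.1, 22 of them rose and 18 fell, with shRNF185.3 22 rose and 16 fell, and 14 rose and 10 fell with both. Over all genes, 28.9% and 27.3% were called with the respective hairpin, and 8.99% rose and 7.13% fell with both. Their median log2 fold changes were 0.01 and 0.02. Among 25 further ligands tested, 7 rose and 5 fell with shRNF185.1, while 8 rose and 6 fell with shRNF185.3. Ptn encodes pleiotrophin, a secreted heparin-binding growth factor, and rose from 9.08, 11.4 and 12.5 CPM in control to 20.8, 23.8 and 43.5 CPM with shRNF185.1 and 24.8, 40.7 and 47.2 CPM with shRNF185.3 (log2 fold changes 1.28 and 1.83, edgeR adjusted p 1.44e-05 and 2.48e-07). Angpt4, an angiopoietin gene, rose by 1.89 and 2.50 on the log2 scale (adjusted p 2.14e-05 and 7.12e-07), and control libraries held between 6 and 18 of its counts. Adaptors and proximal signalling genes were called in 9 of 22 cases with shRNF185.1 (5 higher and 4 lower) and in 6 of 22 with shRNF185.3 (3 higher and 3 lower), the latter a share of 27.3% and so equal to that over all genes. Receptor inhibitors and turnover genes were called in 7 of 17 cases with each hairpin (4 higher and 3 lower), or 41.2%.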

How the data were processed

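RNA-seq was measured in 18 libraries of MPC3 cells, 6 per group, and the 2 deposited tables are named for ComBat-Seq, a batch adjustment of counts, per the labels. The submitters' processing notes name cutadapt 2.3, STAR 2.7.0d, RSEM 1.3.1 and the mm10 build, without roles or order; the annotation, strand setting and statistical test are not given in the sources used here. The deposited expected counts of 47643 genes (0.466% of values are not whole) were rounded before testing; whole counts had been assumed in the design, and the test was kept. The deposited CPM of 15386 genes are a normalised signal, since each column equals the counts divided by an effective library size rather than by the total counts. Whether that size came from the trimmed mean of M values (TMM) was not tested. Whether the batch adjustment was given the groups is not stated, and batch differences it removed are not counted in the degrees of freedom of the tests. All columns matched a library by name.

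Counts were fitted in R 4.3.3 with edgeR 4.0.16 (filterByExpr with a minimum count of 10, TMM, a mean per group, all 18 libraries), which tested 14309 genes by the quasi-likelihood F test with Benjamini-Hochberg adjustment, and genes were called at an adjusted p under 0.05. The procedure was tested on simulated data. Standard errors were derived from each F statistic and its fold change. Alternatives were library size alone, DESeq2 1.42.0, a filter of 1 count, a batch covariate, the replicate number as a block, a GC and length offset (mgcv 1.9.3), libraries summed within group and batch, each batch left out, and limma 3.58.1 on log2(CPM + 1); leaving out each library was chosen after seeing the data. Positions and exonic lengths are from GENCODE M21 on GRCm38, and promoters from RefSeq on GRCm38.p6, which held a window for 37 of the 48 genes.

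Total counts of 22027395 to 43379662 per library set the precision of low genes. Same-group libraries differed by a chi-square of 7.64 to 84.4 per gene over 45 pairs, so no pair agreed within sampling noise. Genes, lists and tests were chosen with earlier results of these data known. A gene was described in full if at least 1 contrast called it at a log2 change of 0.5 or more in size. Egfr, Pdgfra and Axl did not reach that size and were described in full as well. Others are given more briefly. Further pathway genes were named if called with both hairpins in the same direction at a log2 change of 1 or more in size, or as direct partners of such genes.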

Additional observations from a re-analysis of the deposited data

Results flagged for a closer look

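In 7 of 105 groups of 6 values (35 genes in 3 groups), the highest or lowest library lay far from its neighbour relative to the range of its group, where chance gives about 1 in 20, or 5.25. In the shRNF185.1 group these were Egfr at 5.86 log2 CPM in replicate 5 (next 5.67), Ereg at 3.48 in replicate 2 (next 3.95), Met at 7.04 in replicate 6 (next 7.24), Pdgfa at 4.90 in replicate 5 (next 4.45) and Gas6 at 6.19 in replicate 5 (next 5.36). In the shRNF185.3 group they were Fgfr2 at -0.018 in replicate 5 (next 0.86) and Igf1 at 4.71 in replicate 3 (next 4.03).

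A direct edgeR test found 16 genes to differ between the hairpins. Written as shRNF185.3 minus shRNF185.1 on the log2 scale, the difference was 0.51 for Met, 0.46 for Pdgfra, 0.23 for Pdgfrb, 0.37 for Pdgfa, 0.85 for Pdgfb, 0.54 for Pdgfc, 0.40 for Fgfr1, 0.64 for Gas6, 1.93 for Flt4, 0.39 for Vegfc and 0.53 for Ptk7. It was -0.27 for Nrg1, -0.67 for Fgf2, -0.23 for Igf1r, -0.36 for Insr and -0.28 for Axl.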

How the results depend on the processing

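No fold change of a described gene changed sign while called under any of the 11 alternatives. Of the 20 genes called with shRNF185.1, 15 stayed called under all 11. Of the 17 called with shRNF185.3, 10 did, and of the 16 called between the hairpins, 4 did. Leaving out a batch lowered counts most. Without batch 1 the genes of the set called between the hairpins fell from 16 to 5, further pathway genes called with shRNF185.3 from 38 to 21 and between the hairpins from 25 to 6 (13 without batch 2), and all genes called from 4141 to 2207 with shRNF185.1, from 3906 to 2120 with shRNF185.3 (2501 without batch 3) and from 2098 to 753 between the hairpins (1208 without batch 2). Fewer libraries remain in these fits. Leaving out single libraries gave 17 to 21, 16 to 18 and 13 to 17 genes of the set in the 3 comparisons, 38 to 43, 30 to 39 and 17 to 29 further pathway genes, and 3692 to 4215, 3338 to 3995 and 1696 to 2283 genes in all. Calls lost on leaving out a single library were Erbb2 with shRNF185.3 (16 of 18 libraries, log2 fold change -0.15 to -0.10), Csf1 (13, 0.27 to 0.42), Flt4 (7, -1.82 to -1.22) and Hbegf (6, -0.28 to -0.19) with shRNF185.1, and Pdgfrb (12, 0.18 to 0.27), Vegfc (7, 0.33 to 0.46) and Nrg1 (5, -0.32 to -0.24) between the hairpins.

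With the replicate number as a block, 21, 16 and 18 genes of the set were called. The block added Ereg (adjusted p 0.0323), Gas6 (adjusted p 0.0424) and Flt1 (adjusted p 0.0368) with shRNF185.1, and Areg (adjusted p 0.0183) and Flt1 (adjusted p 0.011) between the hairpins, and it removed Flt4 and Csf1 with shRNF185.1 and Erbb2 with shRNF185.3. Same-numbered libraries of different groups had deviations from their group mean that correlated at -0.0144 on average (18 pairs, -0.628 to 0.705, over 9671 genes). Other-numbered libraries of the same batch correlated at -0.434 on average (18 pairs, -0.779 to 0.103), and libraries of other batches at 0.111 (72 pairs). These values do not settle whether the numbers pair the libraries, so the block was kept as an alternative only. Per kb of the longest coding transcript, Areg made up 33.2%, 18.5% and 14.9% of the EGFR ligand sum in control, shRNF185.1 and shRNF185.3. Low counts limit Flt4 and Fgfr2, and the 13 untested receptors.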
